A study of Arabidopsis thaliana with 3 samples.

Results

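GI (AT1G22770) and COR27 (AT5G42900) are 2 genes tied to the circadian clock of Arabidopsis thaliana. They were taken as the probe sets whose only gene in the platform annotation is GI or COR27. Each gene had 1 such probe set, 264211_at for GI and 249174_at for COR27, among 14338 probe sets that name 7936 loci in all. The genes were chosen by their signals and log2 differences to wild-type in this same comparison, so those values are given as a description and without a test. RNA came from lateral nectaries, the nectar glands at the base of the outer stamens, of 2 samples of cwinv4-1 plants and 1 sample of wild-type plants, all of ecotype Columbia-0. The cwinv4-1 plants carry a mutation of CWINV4, a cell wall invertase that splits sucrose outside the cell, and the series title calls the mutant nectarless. A single mutant allele was used, and the title of replicate 1 reads cwinv4-1a with no meaning given for the letter.

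What all 3 samples share bears on clock genes. Per the labels, plants were 30 to 35 days old and grew in 16 h of light and 8 h of darkness at 21 °C. Nectaries of flowers at stages 14 to 15 were cut out over several days, always between 4 and 8 h after dawn, and 250 to 300 of them made up 1 RNA sample. A sample is therefore a mixture of days and of hours within that window, and the labels do not give the hours behind each pool.

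GI encodes GIGANTEA, a large plant-specific nuclear protein. It stabilises the clock photoreceptor ZTL and, with FKF1 in blue light, removes the CDF repressors of the flowering gene CO. Its transcript cycles each day and is known in leaves and seedlings to climb through the light period towards a late-day peak. COR27 encodes a small protein that acts with its family partner COR28 to repress the clock genes PRR5 and TOC1. COR27 transcript is likewise known to peak in the afternoon and is induced by cold. In seedlings the promoters of both genes are bound by the morning repressors CCA1 and LHY. A window of 4 to 8 h after dawn thus falls, as background from other organs, on the part of the day when both transcripts are building up.

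Both transcripts were lower in cwinv4-1 nectaries than in wild-type nectaries, on each mutant array. The GI probe set had signals of 1791 and 833.0 in cwinv4-1 replicates 1 and 2, against 2304 in wild-type. The wild-type signal stood above both mutant signals, as it did for 37.2% of the 7750 probe sets tested here. Replicate 1 kept 77.7% of the wild-type signal and replicate 2 only 36.2%. The mean log2 difference for GI was -0.92 ± 0.78 (SD of the 2 array differences, n = 2 mutant arrays against 1 wild-type array), from -0.36 on replicate 1 and -1.47 on replicate 2. The gap between the mutant arrays, 1.104 on the log2 scale, was larger than the step of 0.36 that separates the wild-type array from replicate 1. For GI the wild-type and replicate 1 levels are therefore not apart beyond the spread seen between replicates.

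COR27 differed by more. Its signals were 1386 and 389.1 in cwinv4-1 replicates 1 and 2, against 2612 in wild-type. Again both mutant arrays lay below the wild-type array, at 53.1% and 14.9% of its signal. The mean log2 difference was -1.83 ± 1.296 (SD, n = 2 against 1), from -0.91 on replicate 1 and -2.75 on replicate 2, which is 3.56-fold lower in the mutant. Here too the mutant arrays were 1.83 apart, further than the 0.91 between replicate 1 and wild-type. Set against GI on the same array, the difference of COR27 to wild-type was lower by a further 0.55 on replicate 1 and 1.28 on replicate 2 on the log2 scale.

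**Figure D1:**
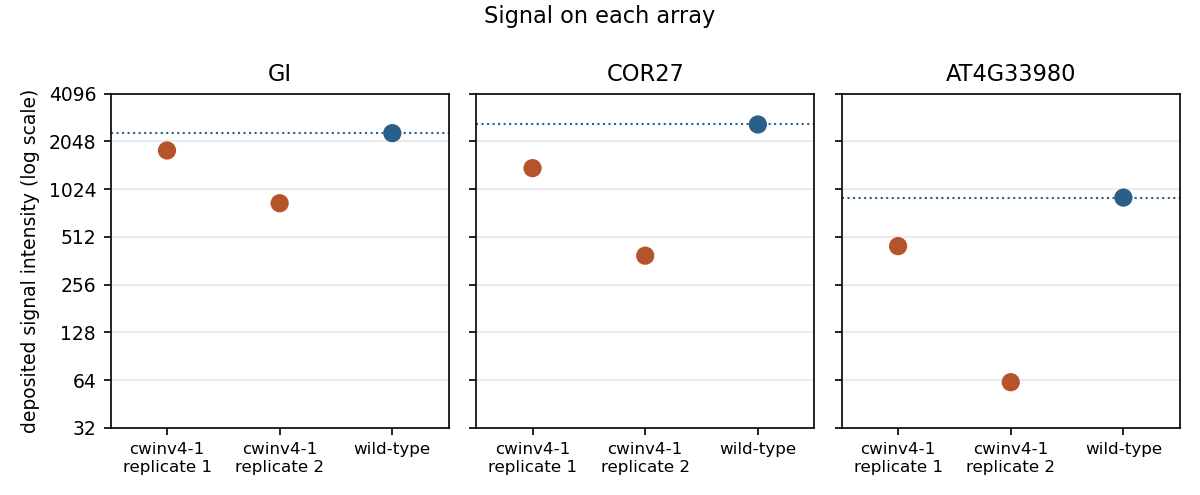
Deposited signal intensity (log scale) of GI, COR27 and AT4G33980 on the 3 arrays, with each point 1 array and the dotted line at the wild-type signal. In each panel replicate 2 of cwinv4-1 is lowest and wild-type highest, from 833.0 against 2304 for GI to 62.0 against 903.8 for AT4G33980.

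The members were also placed among all 7750 probe sets that passed the filter on low signals. Of these, 2885 (37.2%) were lower than wild-type on both mutant arrays, so sharing that direction is common, and both differences use the same wild-type array. For GI, 1015 of the tested probe sets (13.1%) had a log2 difference as low or lower on replicate 1 and 155 on replicate 2, and 117 (1.51%) were as low on both. COR27 stood further out, with 1.59% as low on replicate 1, 0.168% on replicate 2 and 7 probe sets, itself included, as low on both. Neither gene was 2-fold lower on both arrays, a mark that 77 probe sets (0.994%) passed. These positions describe values that led to the choice of the genes and support nothing by themselves. The disagreement between replicates was also large for both genes, since only 4.22% of tested probe sets had mutant arrays as far apart as GI had, and 0.813% as far apart as COR27 had.

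Replicate 2 stood apart from the other arrays in general. The SD of the log2 difference to wild-type over all tested probe sets was 0.68 on replicate 2 and 0.41 on replicate 1, and 20.7% of its probe sets carried no signal, against 13.2% on replicate 1 and 13.1% on wild-type. The 3′ to 5′ signal ratio, a measure of RNA integrity, was above that of both other arrays in 5 of 6 control pairs. Its part in the lower GI and COR27 signals was not tested. Without replicate 2, GI is at -0.36 and COR27 at -0.91 on the log2 scale, and without replicate 1 they are at -1.47 and -2.75. Median log2 differences of all tested probe sets were -0.01 on replicate 1 and -0.08 on replicate 2.

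**Figure D2:**
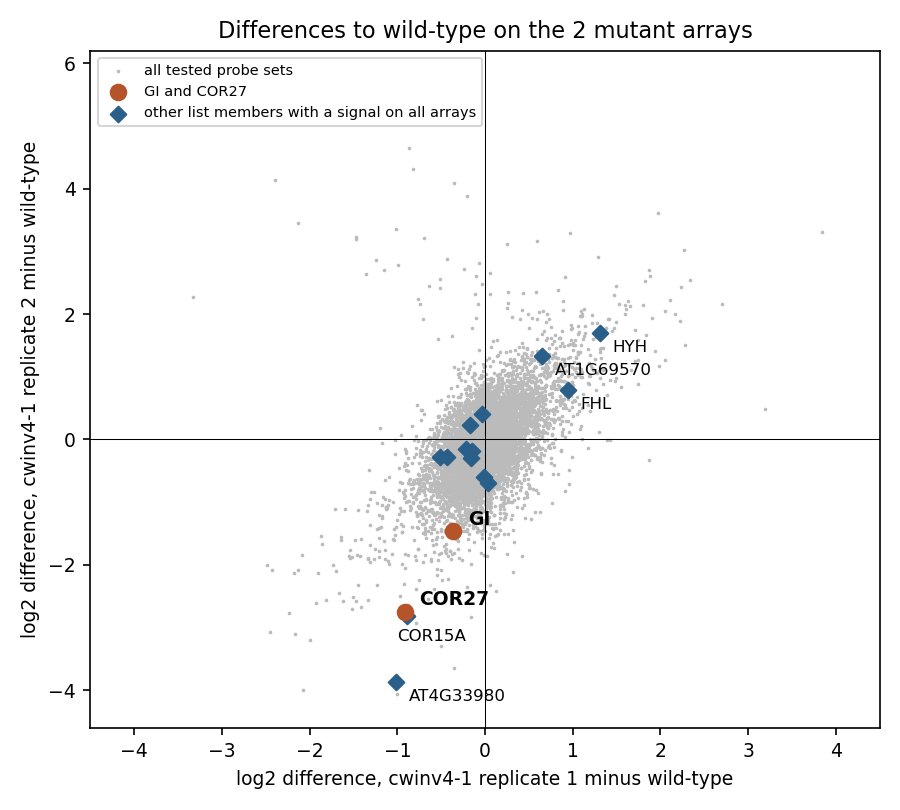
Log2 difference to wild-type on cwinv4-1 replicate 1 (x axis) and replicate 2 (y axis) for the 7750 tested probe sets (grey), GI and COR27 (orange) and the other list members with a signal on all arrays (blue). COR27 lies beside COR15A at the low edge of the cloud, and GI lies closer to its centre.

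Other genes of the clock and of the pathways around GI and COR27 were followed in 5 lists of clock components, clock outputs, photoperiodic flowering, light signalling and cold response. Besides GI and COR27 these hold 180 loci, of which 19 have a probe set with a single gene name here, 14 have a signal on all 3 arrays and 10 were tested. The central oscillator genes CCA1, LHY, TOC1 and the PRR genes are not among them and were not analysed here. None of the 10 passed limma's moderated test (adjusted p from 0.299 to 1), while 33 of all 7750 probe sets did (0.426%), 16 of them lower and 17 higher in cwinv4-1. At an unadjusted p under 0.05, 1 of the 10 was lower and 2 were higher, against 6.49% of all tested probe sets in either direction. Of the 10, 6 were lower and 2 higher than wild-type on both mutant arrays, against 37.2% and 30.0% of all tested probe sets, and their median log2 difference was -0.21, against -0.05 for all tested probe sets.

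Among clock components, the family partner of COR27 also had lower signals in cwinv4-1. AT4G33980, entered in the lists as COR28 although the annotation gives only its locus code, had signals of 446.8 and 62.0 in cwinv4-1 replicates 1 and 2, against 903.8 in wild-type. The mutant arrays held 49.4% and 6.86% of the wild-type signal. Its log2 differences were -1.02 and -3.87, with a mean of -2.44. The replicate 2 signal was below the 25th percentile of its array, and raising low signals to that level gave a mean of -1.52. On the deposited signals AT4G33980 was further from wild-type than COR27, but the order turned with that floor, where COR27 was at -1.83, and with a pseudocount, where AT4G33980 was at -1.37 and COR27 at -1.52. The mean signal of AT4G33980 fell short of the filter, so it was not among the tested probe sets. When the filter was dropped, leaving 10334 probe sets, it passed limma's test. That setting called a larger share of its probe sets than the main setting did and had more prior degrees of freedom. The fit used the replicate 2 signal of 62.0 as deposited, which is below the 25th percentile of its array. No floor or pseudocount was tried in that setting. Of the 10334 probe sets 2, AT4G33980 included, were as low on both arrays.

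The remaining clock components had low signals or lay on average within 0.31 of wild-type on the log2 scale. TIC, a nuclear regulator of clock pace, had signals of 1801 and 1199 in cwinv4-1 and 1819 in wild-type (log2 differences of -0.01 and -0.60, limma adjusted p = 1). AT5G52660, listed as the Myb-like factor RVE6, had 690.3 and 629.0 in cwinv4-1 and 774.4 in wild-type, a mean log2 difference of -0.23. XCT, which affects clock period, had low signals of 173.7 and 235.9 in the mutant and 177.4 in wild-type and was not tested. FIO1, whose loss lengthens the period, had 48.4 on replicate 1, no signal on replicate 2 and 94.1 in wild-type, all too low to read. Besides GI and COR27, only 4 listed clock components had a signal on all arrays, and AT4G33980 had the lowest mean difference of these. GI and COR27 also lay below the other 3, but they were chosen by these values, so their place supports nothing by itself.

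The flowering and light genes downstream of or beside GI included higher values. GI and FKF1 remove CDF repressors as proteins, while the arrays measured transcript, and any link of GI to CDF transcript was not tested. AT1G69570, listed as CDF5, belongs to these repressors. Its signals were 575.8 and 925.9 in cwinv4-1, against 367.3 in wild-type, so that both mutant arrays lay above, by 0.65 and 1.33 on the log2 scale (mean 0.99, SE 0.42, limma adjusted p = 0.64). That difference did not pass the test. SPY, which binds GI and modifies proteins with O-linked sugar, had 464.2 and 280.7 in cwinv4-1 and 452.2 in wild-type, with the mutant arrays on opposite sides. The autonomous-pathway gene LD had a mean log2 difference of -0.18 and its pathway partner FY of -0.40, or -0.21 with a pseudocount. FY was not tested. SMZ, a repressor of flowering, had no signal on replicate 1, 111.9 on replicate 2 and 21.2 in wild-type. Both of its signals lay under the 25th percentile of their arrays.

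FHL, a shuttle protein for phytochrome A, had signals of 1436 and 1278 in cwinv4-1, against 743.8 in wild-type. Its mutant arrays lay close together and both above wild-type, with a mean log2 difference of 0.86 ± 0.12 (SD, n = 2 against 1, limma adjusted p = 0.687). That SD covers only the spread between the mutant arrays, which share the wild-type array, and the fitted SE of FHL was 0.38. HYH, a bZIP factor related to HY5 of the light response, had 146.8 and 192.6 in the mutant and 59.3 in wild-type. Each of these lay under the 25th percentile of its array, and the difference was 0 when low signals were raised to that percentile. CUL4, a scaffold of the ubiquitin ligases that contain COP1, was at -0.17 on replicate 1 and 0.23 on replicate 2. As the only measured clock output, RCA, the activase of Rubisco, had 10100 and 9857 in cwinv4-1 and 11200 in wild-type, a mean log2 difference of -0.17, or -0.29 after quantile normalization.

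**Figure D3:**
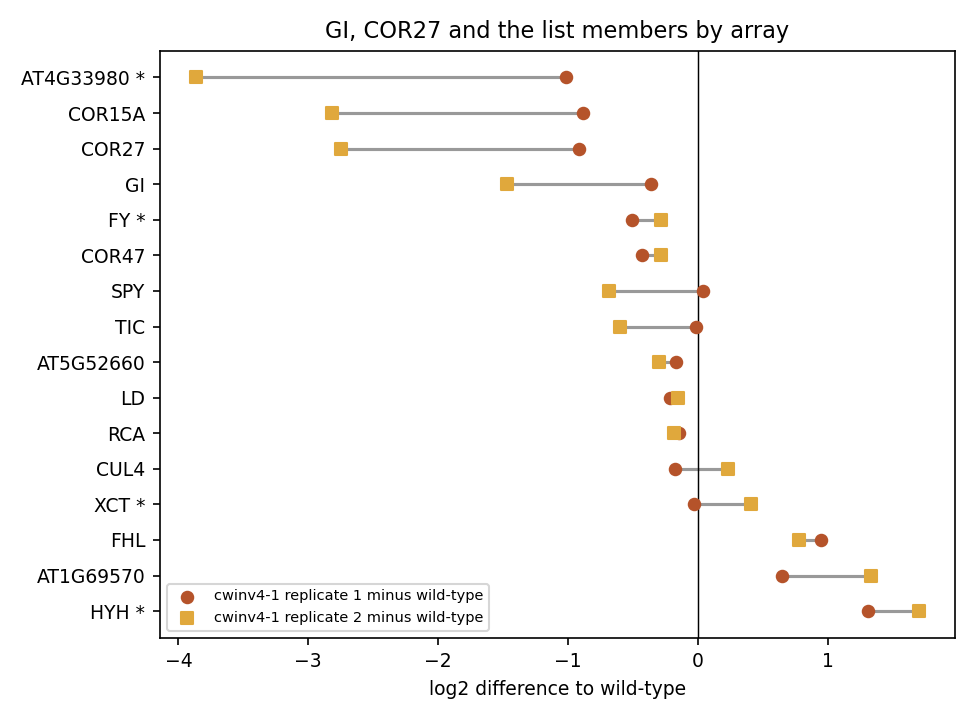
Log2 difference to wild-type of GI, COR27 and the 14 list members with a signal on all arrays, 1 line per gene from replicate 1 (circle) to replicate 2 (square). An asterisk marks genes outside the test. The 4 genes at the top, AT4G33980, COR15A, COR27 and GI, have replicate 2 far below replicate 1.

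Among the cold genes, COR15A had the values nearest to those of COR27. COR15A encodes a protein that protects chloroplast membranes in the cold. Its signals were 8286 and 2170 in cwinv4-1, against 15300 in wild-type, which is 54.2% and 14.2% of the wild-type signal (mean log2 difference -1.85, SE 0.59, limma adjusted p = 0.299). COR15A did not pass that test, but it passed with no filter and with the filter at the 50th percentile. Both settings call a larger share of all probe sets and have more prior degrees of freedom. Its mean log2 difference was -1.85 in each of them, so whether it passed turned on the setting. COR15B, its paralogue, had 748.4 on replicate 1, no signal on replicate 2 and 1657 in wild-type. LTI30, a cold-induced dehydrin, had 241.9 on replicate 1, no signal on replicate 2 and 7896 in wild-type, so that replicate 1 held 3.06% of the wild-type signal. COR47, another dehydrin, had 14400 and 15900 in cwinv4-1 and 19400 in wild-type, a mean log2 difference of -0.36 that was -0.59 after quantile normalization. STZ, the zinc finger factor ZAT10, gave no signal on either mutant array and 171.7 in wild-type, which is under the 25th percentile of that array. A cell without a signal reads null in the deposited table, and what null stands for is not given.

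The genes whose pattern was most like each member were found by the distance between their 2 log2 differences and those of the member, over 3998 tested loci with a single gene name. Nearest to GI were AT5G47700, AT5G43830, AT5G01850, AT1G52720 and AT1G67660, at distances of 0.02 to 0.07. The first of them, AT5G47700, had signals of 1295 and 594.0 in cwinv4-1 and 1671 in wild-type. Nearest to COR27 were COR15A at 0.08 and AT4G30660 at 0.10, followed by AT1G21680 at 0.33, AT2G23120 at 0.64 and AT3G59350 at 0.66. AT4G30660 had 583.2 and 149.8 in cwinv4-1 and 1070 in wild-type. GI and COR27 themselves were 1.39 apart by this measure, and COR27 and AT4G33980 1.12. Such likeness rests on 3 arrays and a shared wild-type array, and GI sits where probe sets are dense, so close neighbours are easily found there.

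Marker genes of the nectary and of adjoining organs were read alongside. Of 13 nectary markers only SWEET9, the sucrose exporter of nectar secretion, has a named probe set here, with signals of 16300 and 38100 in cwinv4-1 and 19700 in wild-type. The summed signal of the 2 measured pollen and stamen markers, of 7 listed, was 1183 and 763.0 in cwinv4-1 and 1332 in wild-type. SPT, the 1 measured carpel marker of 7, had 767.7 and 390.9 in cwinv4-1 and 877.3 in wild-type. Of the pollen and stamen markers, AT3G07820 had 569.1 and 128.2 in cwinv4-1 and 658.0 in wild-type, while AT5G45880 had 614.1 and 634.8 in cwinv4-1 and 674.3 in wild-type. AT3G07820 and SPT, like GI and COR27, were thus lowest on replicate 2, and AT5G45880 was not. The replicate 2 signal of AT3G07820 was under the 25th percentile of its array. The part of these markers in the members' values was not tested. The 5 measured green tissue markers of 7 summed to 32566 and 31678 in cwinv4-1 and 29143 in wild-type, and they did not share a direction. PSAN, PSAE-1 and SBPASE were higher on both mutant arrays. LHCB4.1 and RCA were lower on both. LHCB4.1 was, like GI and COR27, lowest on replicate 2, while the mutant arrays of RCA were only 0.04 apart on the log2 scale. No measured marker was listed at 0. In pooled tissue, fewer cells that express a gene and less transcript per cell cannot be told apart.

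Read against the collection window, each value of GI and COR27 comes from nectaries pooled over several days and over the hours of that window. Daily cycling of both transcripts is background from other organs and was not measured here in nectaries. All 3 samples carry the same window of 4 to 8 h after dawn, and no time course was measured. The hours at which the nectaries of each pool were cut are not in the labels, and their part in the differences between cwinv4-1 and wild-type, or between the mutant replicates, was not tested.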

How the data were processed

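RNA of pooled lateral nectaries (500 ng per sample) was amplified in 1 round, biotin-labelled and hybridised to 1-colour Affymetrix arrays, per the labels' protocols. The authors deposited 1 linear intensity per probe set and array. MAS5 produced it, per the submitters' processing notes; its version and target level are not given in the sources used here. The series' design text adds that further wild-type nectary arrays, not used here, entered the normalization. It calls the samples biological replicates.

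Names came from GEO's platform annotation and, by gene number, the RefSeq table of TAIR10.1. Of 14338 probe sets, 8037 had 1 gene name, 335 several and 5966 none here, and 8000 matched a locus. No coordinates are given, since the files state no build.

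Intensities were taken to log2 and not normalized again. Probe sets measured on all 3 arrays (10334) and with a mean at or above the 25th percentile (7750) were fitted with limma 3.58.1 in R 4.3.3 (lmFit, eBayes with a trend, two-sided, Benjamini-Hochberg adjustment over all 7750, threshold 0.05). The fit has 1 residual and 15.4 prior degrees of freedom, so the wild-type spread is taken to equal that of the mutant arrays. Precision is limited by having 3 arrays.

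Members, lists and the naming rule were chosen with earlier results of these data known. The rule names GI, COR27, every measured member of the 5 lists and the 5 nearest loci to each of the 2 genes. Alternatives were median centring, quantile normalization, a floor or pseudocount at a signal of 222.0, other filters, eBayes with no trend or a robust prior, and each mutant array left out.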

Additional observations from a re-analysis of the deposited data

Results flagged for a closer look

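The control probe sets were outside the comparison, and some of their 3′ to 5′ signal ratios exceeded those of the wild-type array. On cwinv4-1 replicate 2 the ratio was 11.17 against 4.815 in wild-type for 1 GAPDH pair and 2.436 against 1.375 for the other. The ubiquitin pairs read 3.069 against 1.843 and 1.747 against 0.936, and 1 actin pair read 28.27 against 12.07. On cwinv4-1 replicate 1 the other actin pair read 32.18 against 25.81.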

How the results depend on the processing

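GI and COR27 stayed below wild-type on both mutant arrays under quantile normalization, median centring, a floor and a pseudocount, with mean log2 differences from -0.94 to -0.79 for GI and from -1.94 to -1.52 for COR27. Leaving out 1 mutant array gave -1.47 to -0.36 for GI and -2.75 to -0.91 for COR27. The count of probe sets passing limma's test, 33 of 7750, was 0 after quantile normalization (341 at an unadjusted p under 0.05), 0 after median centring (399), 126 with no filter and 90 with the filter at the 50th percentile, and the prior degrees of freedom ranged from 3.44 to 157 over all settings. Of the list members, 0 passed with the filter at the 25th percentile, 2 with no filter (AT4G33980 and COR15A) and 1 with the filter at the 50th percentile (COR15A). The fit held 10334 probe sets with no filter and 5167 with the filter at the 50th percentile. Both settings thus called a larger share of all probe sets than the main setting did. All 14 list members with a signal on all arrays were in the fit with no filter. The number of list members lower on both mutant arrays was 8 of 14, also after quantile normalization and median centring. On 1 array alone it was 9 to 10, an alternative added after seeing the data. The 14 include AT4G33980, XCT, FY and HYH, which are outside the 7750 tested probe sets. Their matching background is the 10334 probe sets of the fit with no filter. How many of those were lower than wild-type was not counted, so the counts out of 14 are given without a background share. Of the 10 tested members, 6 were lower on both mutant arrays, against 37.2% of the 7750 tested probe sets. Among list members, mean log2 differences moved by more than the SD between the mutant arrays for RCA and HYH after quantile normalization (-0.29 and 1.16), for COR47 after quantile normalization (-0.59), for RCA after median centring (-0.12), for FY, HYH and FHL with a pseudocount (-0.21, 0.48 and 0.71), and for HYH with a floor, where it was 0. The mean log2 difference of CUL4 was 0.03 on the deposited scale and -0.02 after quantile normalization. No paired analysis was possible because cwinv4-1 and wild-type share only replicate number 1. The lone wild-type array limits every difference, since its own spread was not measured.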
